A study of Mus musculus with 24 samples.

Results

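The genes described here are those of the slow-type calcium pump of the sarcoplasmic reticulum and its closest partners: Atp2a2, which encodes the pump, its small membrane regulators Sln (sarcolipin) and Pln (phospholamban), and the calcium buffers Casq1 and Casq2 (fast-type and cardiac-type calsequestrin). Every array row whose annotated symbol was one of these 5 was taken, which gave 8 of the 26423 rows: 3 for Atp2a2, 2 for Casq1 and 1 each for Sln, Pln and Casq2. The genes were selected on their difference between Hira knockout and control muscle, so that difference is given for them as a description, with no test. Knockout animals were Myf6 cre/+; Hira flox/- and control animals Myf6 cre/+; Hira flox/+, all 6 months old, with the strain given as C57BL6/J;129S1/SvImJ. Both groups carried the Cre, expressed from the Myf6 locus in muscle fibres, so by genotype control fibres kept an intact copy of Hira, the gene of a chaperone that places histone H3.3 in chromatin. The other Hira copy of knockout animals was null in every cell of the body, not in fibres alone. Total RNA of the tibialis anterior, a fast muscle of the lower leg, from 4 knockout and 4 control animals was hybridised 3 times per animal, which gave 24 arrays.

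In muscle fibres the sarcoplasmic reticulum stores calcium, releases it through ryanodine receptors to start contraction, and takes it back with calcium pumps of the SERCA family to end it. Fast fibres rely mainly on the product of Atp2a1 and slow fibres and heart on that of Atp2a2. Sarcolipin and phospholamban bind these pumps within the membrane and lower their calcium uptake, while calsequestrin holds calcium inside the store, close to the release channel. Casq1 is the main calsequestrin of fast fibres, and Casq2 that of heart, with some in slow fibres. Phospholamban is also made in smooth muscle, and Atp2a2 in many cell types.

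The 3 genes with an entry in the RefSeq promoter table (GRCm38.p6), Casq2, Pln and Casq1, differed in their measured levels between groups in 3 ways (higher, lower and overlapping), and their promoters are shown so that the letters can be read beside those values. Each sequence runs from 250 bases before to 50 bases after the annotated start, 5′ to 3′ on the gene's strand, with motif matches in capitals. The Casq2 promoter lies at chr3:102086165-102086464 (+), that of Pln at chr10:53337436-53337735 (+) and that of Casq1 at chr1:172219846-172220145 (-).

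Casq2: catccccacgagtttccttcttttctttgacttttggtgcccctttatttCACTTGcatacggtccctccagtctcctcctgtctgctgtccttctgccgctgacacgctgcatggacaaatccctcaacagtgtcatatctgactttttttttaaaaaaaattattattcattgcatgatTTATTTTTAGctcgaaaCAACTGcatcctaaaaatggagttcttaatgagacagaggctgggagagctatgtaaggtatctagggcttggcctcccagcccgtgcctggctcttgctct
Pln: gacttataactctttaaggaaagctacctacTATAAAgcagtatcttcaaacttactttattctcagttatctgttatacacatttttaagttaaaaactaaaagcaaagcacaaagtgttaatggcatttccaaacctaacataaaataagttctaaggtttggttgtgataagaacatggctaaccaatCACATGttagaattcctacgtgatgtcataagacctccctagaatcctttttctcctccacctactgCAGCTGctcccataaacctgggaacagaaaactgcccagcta
Casq1: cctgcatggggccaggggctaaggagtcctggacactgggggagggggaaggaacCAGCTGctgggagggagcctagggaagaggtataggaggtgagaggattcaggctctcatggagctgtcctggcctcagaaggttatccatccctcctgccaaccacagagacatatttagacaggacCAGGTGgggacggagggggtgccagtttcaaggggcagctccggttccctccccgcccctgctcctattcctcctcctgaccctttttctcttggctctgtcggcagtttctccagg

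On both strands the E-box CANNTG, bound by myogenic factors, was searched, and with it the form CAGCTG, which was counted under both. The TATA box was searched as TATAAA, the site of TEAD factors as CATTCC, and MEF2 and CArG sites by name. Counted from the start, Casq2 held a MEF2 match beginning at -69, a motif found in 3.19% of the 32851 promoters of the table, and E-boxes at -200 and -52. Pln held TATAAA (13.6% of all promoters) at -219 and E-boxes at -59 and 9, the second of the form CAGCTG (16.3%). Casq1 held E-boxes at -195 (the form CAGCTG) and -67, and an E-box of some form was present in 72.3% of all promoters. The letters of CATTCC (14.7%) and of CArG (1.63%) were not in these 3 windows. The GC content was 44.7% for Casq2, 36.0% for Pln and 60.3% for Casq1, where the median of all promoters was 52.7%. These matches describe letters and were not tested against the expression values.

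Across the arrays the median intensity was the same, and pairs of arrays correlated at 0.984 to 0.995 (Pearson, log2, over all rows) within an animal, 0.975 to 0.993 between animals of a group and 0.967 to 0.988 between groups. Errors of group means and of distances between rows are SDs over 4 animals, and errors of differences between sets of animals are SEs. For the knockout minus control differences of the 8 rows, the SE was taken from the SDs of both groups. Elsewhere it was the SE of the limma fit. Levels are log2 of the deposited intensity, averaged over the 3 hybridisations of an animal. The number of animals and arrays, and not a counting depth, limits their precision. The Hira row stood at 8.63, 9.31, 8.52 and 8.83 in knockout animals, against 8.85, 9.11, 8.92 and 8.99 in control animals, so that knockout animal 2 was the highest of the 8 and the groups overlapped. It averaged 8.82 ± 0.35 in knockout and 8.97 ± 0.11 in control muscle (limma, adjusted p = 0.643), and the sources used here do not say whether its probe lies in the deleted part. As a check of the tissue, the group means of the fibre markers Ckm, Acta1 and Tnnt3 stood between 18.2 and 18.6, among the brightest values of the arrays. In whole muscle, a change in the cells present and a change in RNA per cell cannot be told apart.

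Atp2a2 was 4.13-fold brighter in knockout muscle by 1 row and 3.49-fold by another, while the remaining row gave overlapping groups. Row mMR030883 stood at 13.44, 13.38, 13.37 and 13.30 in knockout animals 1 to 4, against 11.67, 11.37, 11.12 and 11.13 in control animals 1 to 4. Every knockout animal lay above every control animal, and the gap between the nearest animals of the groups was 1.63. The difference was 2.05 ± 0.13 (log2, SE) and the knockout animals were closer to each other (SD 0.058) than the control animals were (SD 0.26).

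Row PH_mM_0016288 behaved in the same direction, with 12.08, 11.88, 11.94 and 11.54 in knockout animals, against 10.33, 9.69, 10.13 and 10.07 in control animals. The groups again did not overlap, and the difference was 1.80 ± 0.18 (SE). Row PH_mM_0007334 stood at 9.74, 8.85, 10.08 and 9.97 in knockout animals, against 10.09, 10.07, 10.30 and 9.93 in control animals. Here the knockout range spread around part of the control range, with knockout animal 2 well below all others, and the difference was -0.44 ± 0.29 (SE). Without knockout animal 2 the difference was -0.17.

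Row PH_mM_0007334 was also the least repeatable of the 8: its SD between hybridisations of an animal was 0.39, where the other 7 rows had 0.13 to 0.21. The 3 hybridisations of knockout animal 1 alone gave an SD of 0.75 for that row. Within an animal, mMR030883 minus PH_mM_0007334 came to 3.29 to 4.53 in knockout and 0.82 to 1.59 in control animals, so the disagreement between these rows lay in all 4 knockout animals. By contrast mMR030883 minus PH_mM_0016288 came to 1.36 to 1.76 in knockout and 0.99 to 1.68 in control animals, ranges that overlapped. Atp2a2 transcripts differ at their 3′ end by splicing, and the sources used here do not say which form each row reads.

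**Figure D1:**
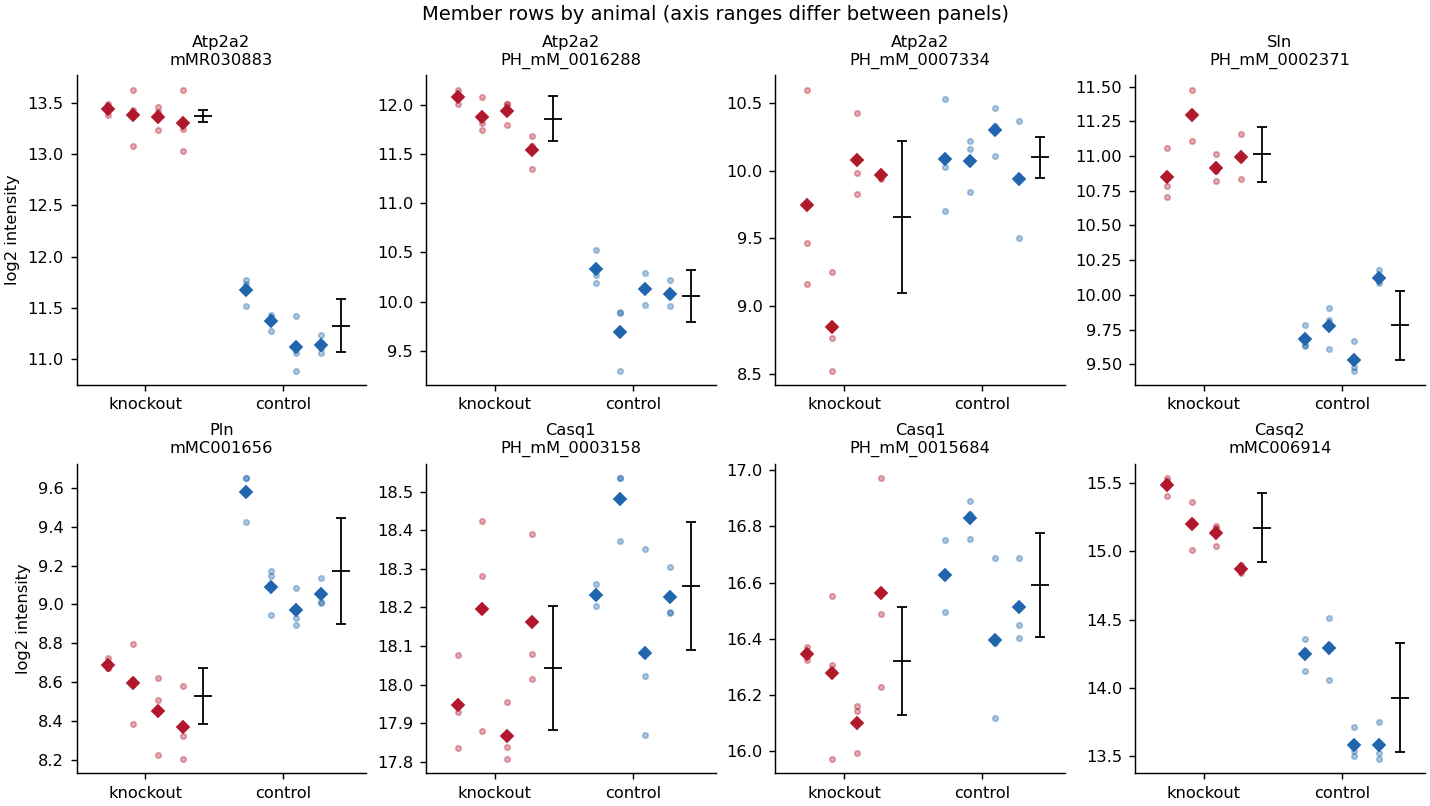
Log2 intensity of the 8 rows, a panel per row, with knockout animals in red on the left and control animals in blue on the right. Diamonds are animals 1 to 4 from left to right within a group, pale points their 3 hybridisations, and black bars the mean ± SD over 4 animals. Atp2a2 rows mMR030883 and PH_mM_0016288, Sln and Casq2 lie higher and Pln lower in knockout muscle without overlap, while Atp2a2 row PH_mM_0007334 and both Casq1 rows overlap.

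The regulators of the pump differed in opposite directions. Sln stood at 10.85, 11.30, 10.91 and 10.99 in knockout animals, against 9.68, 9.78, 9.53 and 10.12 in control animals. All knockout animals were above all control animals, with the highest control value in animal 4 and a gap of 0.73 to the lowest knockout value. The difference was 1.23 ± 0.16 (log2, SE), or 2.35-fold, from mean intensities of 2065 in knockout and 879 in control muscle.

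Pln stood at 8.69, 8.60, 8.45 and 8.37 in knockout animals, against 9.58, 9.09, 8.97 and 9.05 in control animals. All knockout animals were below all control animals, the nearest by 0.28, and the difference was -0.64 ± 0.16 (SE) on the log2 scale, which is 1.56-fold lower. Control animal 1 was the highest of the 8, and without it the difference was -0.51. The lowest array value of Pln was 295 in knockout muscle and 476 in control muscle, where the highest 5th percentile of any array, taken here as the dim level, was 125.

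The calsequestrins split as well. Casq2 stood at 15.49, 15.20, 15.13 and 14.87 in knockout animals, against 14.25, 14.29, 13.58 and 13.58 in control animals. The groups did not overlap, and the control animals fell into a brighter pair (animals 1 and 2) and a dimmer pair (animals 3 and 4). The difference was 1.25 ± 0.24 (log2, SE), or 2.37-fold.

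Casq1 row PH_mM_0003158 stood at 17.95, 18.19, 17.87 and 18.16 in knockout animals, against 18.23, 18.48, 18.08 and 18.23 in control animals. Row PH_mM_0015684 gave 16.34, 16.28, 16.10 and 16.56 in knockout animals, against 16.63, 16.83, 16.40 and 16.51 in control animals. Both rows overlapped between groups, with differences of -0.21 ± 0.12 and -0.27 ± 0.13 (SE), and the 2 rows kept nearly the same distance in both groups (1.72 ± 0.15 in knockout and 1.66 ± 0.045 in control muscle). Quantile normalization moved the difference of the first row to -0.075 and cyclic loess to -0.073, and those of the other row to -0.16 in both cases. The first row reached 60.2% of the array maximum on a knockout array and 59.6% on a control array, near the top of the scale, where linearity was not tested.

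In all, the groups did not overlap in 5 of the 8 rows, 4 higher and 1 lower in knockout muscle. Of all 26423 rows, 15.6% showed no overlap in either direction, a share from which nothing is read here because this contrast chose the genes. The rows just inside and outside that line were Pln, with a gap of 0.28 between groups, and Casq1 row PH_mM_0003158, where the groups overlapped by 0.11. No value of the 8 rows lay at the floor set for low intensities on any array. The spread of the differences over 26 other processing settings is shown in the plot of member differences: every row kept its direction under each setting that included it, and no difference moved by as much as the SD between animals. For the 5 rows without overlap, leaving out an animal or taking a series alone could not change the direction. Settings that altered only the variance model or the set of rows returned the same difference. The kept direction is therefore no further support.

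**Figure D2:**
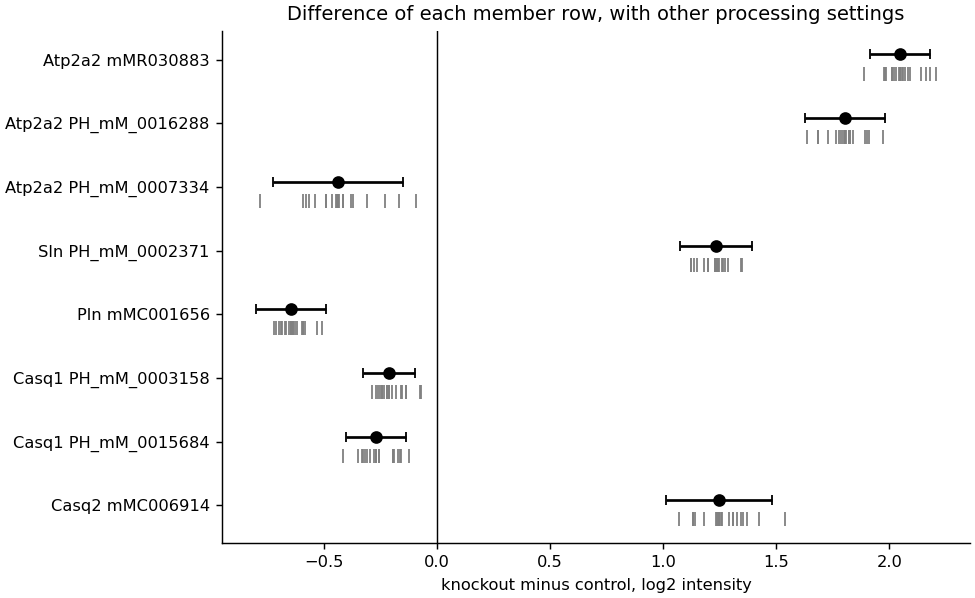
Knockout minus control difference in log2 intensity for each of the 8 rows. Black points are the values given in the text with their SE (4 animals per group), and grey ticks are the same difference under the other processing settings and with animals or hybridisations left out. Atp2a2 mMR030883 stays between 1.89 and 2.20 and Casq2 between 1.07 and 1.54, while Atp2a2 row PH_mM_0007334 runs from -0.78 to -0.095.

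The numbers in the animals' labels fell into 2 series, here A (knockout animals 1 and 2, control animals 1 and 2) and B (the other 4), and the sources used here do not say what the series stand for. Within series A the knockout minus control difference was 1.89 for Atp2a2 mMR030883, 1.34 for Sln, -0.69 for Pln and 1.07 for Casq2. Within series B the corresponding differences were 2.20, 1.12, -0.60 and 1.42. The groups did not overlap over all animals in these 4 rows, so their direction within a series was fixed in advance. It is no further support. Atp2a2 row PH_mM_0007334 gave -0.78 in series A and -0.095 in series B.

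The series also offer a comparison that the choice of genes did not use. For Atp2a2 mMR030883, Pln and Casq2, both series A animals lay above both series B animals in knockout and in control muscle. For mMR030883 the nearest knockout animals of the series were as close as 13.38 and 13.37. Atp2a2 row PH_mM_0016288 overlapped between series, with A minus B at 0.24 in knockout and -0.092 in control muscle. Sln, both Casq1 rows and Atp2a2 row PH_mM_0007334 did not split this way in both genotypes either. With genotype in the model, A minus B was 0.011 for Sln, 0.13 for each Casq1 row and -0.38 for PH_mM_0007334. The Casq2 means were 15.34 in series A and 15.00 in series B among knockout animals, and 14.27 and 13.58 among control animals. A split of this kind in both genotypes, in either direction, was present in 10.5% of all rows. With genotype in the same model, Casq2 differed by 0.52 ± 0.13 (series A minus B, log2, SE; limma, adjusted p = 0.430), Pln by 0.28 ± 0.13 (adjusted p = 0.430) and Atp2a2 mMR030883 by 0.24 ± 0.12 (adjusted p = 0.430). None of them passed the threshold of 0.05, nor did any of the 26423 rows (0.00%) in limma, although 2934 had an unadjusted p under 0.05.

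After each group's mean was taken off, the 8 animal values of Atp2a2 mMR030883 ran with those of Pln (Pearson r = 0.91) and Casq2 (0.83), and those of the 2 Casq1 rows with each other (0.80). The knockout values of mMR030883 varied little (SD 0.058), so its r rested mainly on the control animals. Atp2a2 mMR030883, Pln and Casq2 were also the rows with series A above series B in both genotypes. The series was not taken off, so that split enters their r. The 2 Atp2a2 rows that were higher in knockout muscle were less alike (r = 0.34), and Sln ran with neither of them (-0.22 and -0.20). Row PH_mM_0016288 had r = 0.63 with Pln, 0.17 with Casq2, and -0.71 and -0.65 with the Casq1 rows. These correlations describe 8 points that share animals and arrays and are given with no test.

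Among 15066 other genes above the dim level, those most like each gene over the 8 animal means were found by Pearson r. Where groups are apart, the distance between them enters r. The genes were Tecta (r = 0.997), H19 (0.991) and Gfer (0.989) for Atp2a2 mMR030883, and Arrb2 (0.984), Hsd17b7 (0.983) and Fam89b (0.982) for Sln. For Pln they were Prmt6 (0.980), Mapt (0.978) and Lingo3 (0.976). Atp5mpl (0.977), Tex261 (0.972) and Nmnat3 (0.965) were most like Casq1, and Prkci (0.995), Pigk (0.990) and Mrpl1 (0.987) most like Casq2. With group means taken off, the nearest were Wnt9a, Itsn2 and Pxylp1 for Atp2a2 (r from 0.987 to 0.993), Fkbp5, Taf11 and Dmrtc1a for Sln (0.961 to 0.964), and Plekhh3, Pnrc2 and Fbxo17 for Pln (0.968 to 0.981). Nt5c3, Abcb1b and Imp3 came nearest to Casq1 (0.978 to 0.984) and Dolpp1, Ptcd1 and Agpat1 to Casq2 (0.981 to 0.998). The search ran over many genes and few points, and the values are given as a description.

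Most other genes of calcium handling did not pass the test. Of 62 measured genes in 7 lists (70 listed), 1 rose and 1 fell at an adjusted p under 0.05 (limma over all rows), where 7.00% of all rows passed, 3.23% higher and 3.77% lower in knockout muscle. Slc8a3, a sodium-calcium exchanger, rose 1.75-fold, with 12.18, 12.52, 12.24 and 12.31 in knockout animals and 11.57, 11.95, 11.26 and 11.24 in control animals (log2 difference 0.81 ± 0.17, SE; limma, adjusted p = 0.0155). Calm3, a calmodulin gene, fell 1.49-fold (-0.58 ± 0.14; limma, adjusted p = 0.0284). In both genes the groups did not overlap. The call of Calm3 ended when control animal 1, 3 or 4 or knockout animal 2, 3 or 4 was left out, and the count over the 62 genes was then 1, or 2 without control animal 3. Leaving out hybridisation 2 also gave 1. The median log2 difference of the 62 genes was -0.013, beside -0.076 over all rows.

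By role, the other calcium pumps had 0 of 7 genes past the threshold and a median of -0.18. The fast-type pump gene Atp2a1 stood at 18.42 ± 0.24 in knockout and 18.53 ± 0.16 in control muscle (difference -0.11 ± 0.15, SE), near the top of the array's range. The pumps of smallest p were Atp2b3, a plasma membrane pump (-0.58 ± 0.16; limma, adjusted p = 0.0557), and Atp2a3 (-0.39 ± 0.16; adjusted p = 0.199). Among small peptide regulators, Mrln (myoregulin) was the 1 of 4 measured and differed by 0.034 ± 0.18. Myoregulin is a small peptide that lowers pump activity in fast muscle, like the regulators described above.

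Release channel and triad genes had 0 of 17 past the threshold (median -0.10). Cacna1s, the voltage sensor of excitation-contraction coupling, differed by -0.44 ± 0.15 (limma, adjusted p = 0.121) and Itpr3 by -0.33 ± 0.12 (adjusted p = 0.126). The 3 ryanodine receptor genes of the list were not analysed here. Other calcium buffers of the reticulum had 0 of 6 (median 0.16), with calreticulin (Calr) at 0.33 ± 0.18 (adjusted p = 0.312) and the histidine-rich calcium-binding protein Hrc at 0.21 ± 0.12 (adjusted p = 0.353).

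Cytosolic buffers and sensors had 1 of 17, the Calm3 fall already given, and a median of 0.050. Rcan2, a calcineurin regulator, differed by -0.46 ± 0.15 (limma, adjusted p = 0.101). Store-operated entry and exchange had 1 of 8, Slc8a3, and a median of -0.092, with the related exchanger Slc8a1 at -0.37 ± 0.14 (adjusted p = 0.140). Stim1, the calcium sensor of the store, named after its values were seen, gave 0.31 (adjusted p = 0.193) in its brighter row and 0.46 (adjusted p = 0.0351) in the other. Mitochondrial calcium uptake had 0 of 6 (median 0.18), with the uniporter gene Mcu at 0.27 ± 0.12 (adjusted p = 0.204) and Micu2 at 0.22 ± 0.16 (adjusted p = 0.428).

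**Figure D3:**
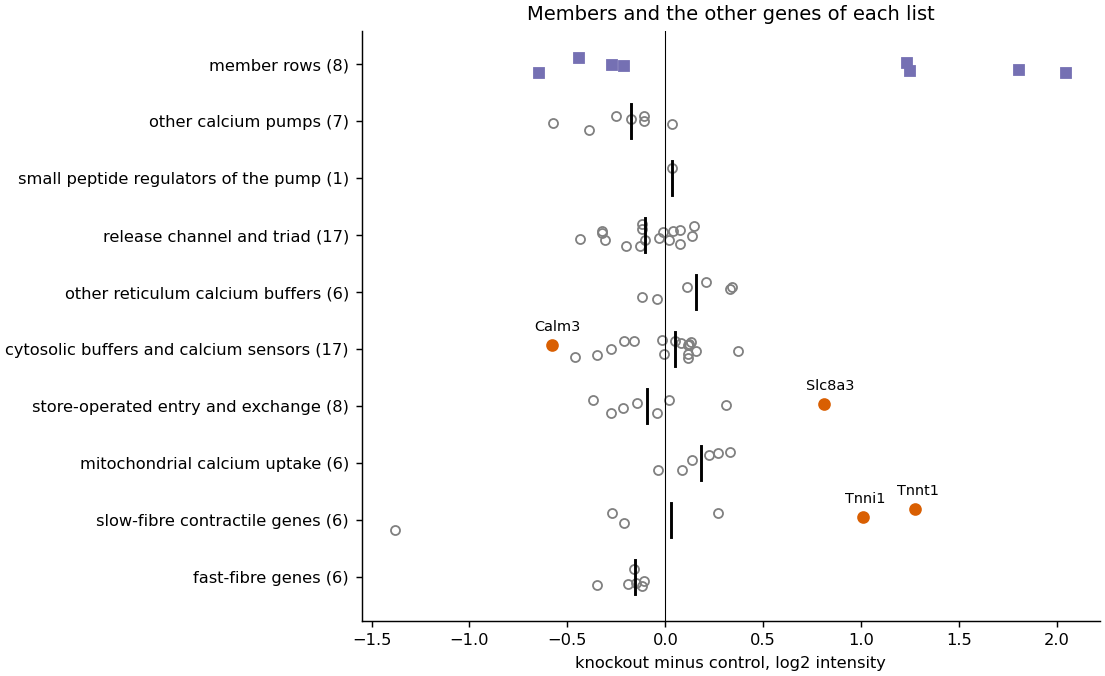
Knockout minus control difference in log2 intensity. Squares are the 8 rows of the 5 genes chosen for their difference. Circles are the other genes by list (number measured in brackets), filled and named where limma's adjusted p was under 0.05, and the vertical bar is the median of a list. Slc8a3, Tnni1 and Tnnt1 are higher and Calm3 lower in knockout muscle, and the other circles are open.

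Because Atp2a2 and Casq2 mark slow fibres, genes of slow and fast fibres, most of them contractile, were set beside them. Like the other lists here, these were chosen with earlier results of these data known, so their counts are no independent check. Pvalb and Atp2a1 stand both in the fast-fibre list and among the calcium handling genes. Of 6 measured slow-fibre genes 2 rose and 0 fell, with a median of 0.027, where 3.23% of all rows were higher and 3.77% lower. Tnni1, slow troponin I, rose 2.01-fold, with 13.14, 13.23, 13.26 and 13.28 in knockout animals and 12.20, 12.21, 12.25 and 12.23 in control animals (limma, adjusted p = 0.000281). Tnnt1, slow troponin T, rose 2.42-fold, with 13.35, 12.61, 12.85 and 11.98 in knockout animals and 11.50, 11.59, 11.17 and 11.44 in control animals (adjusted p = 0.0102). The groups did not overlap in either gene, and the knockout animals varied far more in Tnnt1 than in Tnni1. Knockout animal 1 was the highest of all in Tnnt1, as it was in Casq2 and in both Atp2a2 rows that were higher, and knockout animal 4 the lowest knockout animal in all 4 rows. Pln, which was lower in knockout muscle, also had animal 1 as its highest and animal 4 as its lowest knockout animal. These ranks were thus not particular to rows that were higher, and the 2 animals belonged to different number series. Tnni1 ran the other way among knockout animals, lowest in animal 1 and highest in animal 4, and Sln was also lowest in knockout animal 1. The slow myosin genes on the list, Myh7, Myh7b, Myl2 and Myl3, were not analysed here. Of 6 measured fast-fibre genes 0 passed in either direction by limma, 0 had an unadjusted p under 0.05, and 1 passed with array weights. Pvalb, the fast-fibre calcium buffer parvalbumin, differed by -0.35 ± 0.19 (limma, adjusted p = 0.310) and Actn3 by -0.16 ± 0.13 (adjusted p = 0.488). In control muscle the means of these 6 genes lay from 17.63 to 18.65, near the top of the scale, where linearity was not tested. Csrp3, a muscle LIM protein gene named after its values were seen, had the widest difference of the slow list, -1.38 (adjusted p = 0.169), with an SD of 1.38 among control animals. Whether the slow and fast lists differ from each other was not tested.

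Of 19 measured markers of other cells that can carry these transcripts, 6 fell and 1 rose, and the other 12 did not pass. At the same threshold 3.77% of all rows were lower and 3.23% higher in knockout muscle. Of 6 measured smooth muscle markers 4 fell and 1 rose. Their summed intensity ran from 35180 to 39426 in knockout and from 48719 to 57820 in control animals, with no overlap. Most of that sum was Acta2 (mean intensities of 17999 in knockout and 27706 in control muscle) and Smtn (16996 in knockout and 23100 in control muscle). Acta2 fell 1.54-fold (limma, adjusted p = 0.0200), Rgs5 1.52-fold (adjusted p = 0.0174), Tagln 1.50-fold (adjusted p = 0.0141; mean intensities of 132 in knockout and 199 in control muscle, little above the dim level) and Smtn 1.36-fold (adjusted p = 0.0492), while Lmod1 rose 1.70-fold (adjusted p = 0.0268). Leaving out any 1 of the 8 animals ended the Smtn call, and leaving out 1 animal ended that of Lmod1 for 5 animals and those of Acta2 and Rgs5 for 3 each. Cnn1, a defining marker, was at or below the dim level in both groups. The sum, mostly Acta2 and Smtn, and Pln were both lower in knockout muscle, while Cnn1 was dim, Tagln little above the dim level and Lmod1 higher. Whether the sum reads the amount of smooth muscle was not tested, nor was the part of smooth muscle in the Pln difference.

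Of 8 endothelial markers 2 fell, Icam2 by 1.74-fold (limma, adjusted p = 0.0136) and Emcn by 1.51-fold (adjusted p = 0.0440), and 0 rose, with summed intensities of 35692 to 50770 in knockout and 49844 to 72481 in control animals. The Emcn call ended without any 1 of 6 animals. Of 5 measured heart muscle markers none passed by limma, 1 had an unadjusted p under 0.05, and Tnnt2 (0.53 ± 0.19; adjusted p = 0.124) and Nppb (0.30 ± 0.20; adjusted p = 0.401) had the smallest p. Their summed intensity overlapped, at 9462 to 59116 in knockout and 14898 to 26157 in control animals. Most of that sum was Actc1, with mean intensities of 20765 in knockout and 16370 in control muscle (log2 difference 0.34 ± 0.50, SE; limma, adjusted p = 0.724). Defining heart markers on the list with the lowest levels were Tnni3 (162 in knockout and 170 in control muscle, mean intensity) and Nppa (346 in knockout and 337 in control muscle). The part of these cells in the values of Atp2a2, Sln and Casq2 was not tested. Of the 7 calls in these 3 lists, 2 were left without control animal 1, 3 without knockout animal 3, and 4 each without control animal 3, control animal 4, knockout animal 1 or knockout animal 4; leaving out hybridisation 2 left 3 and hybridisation 3 left 4.

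**Figure D4:**
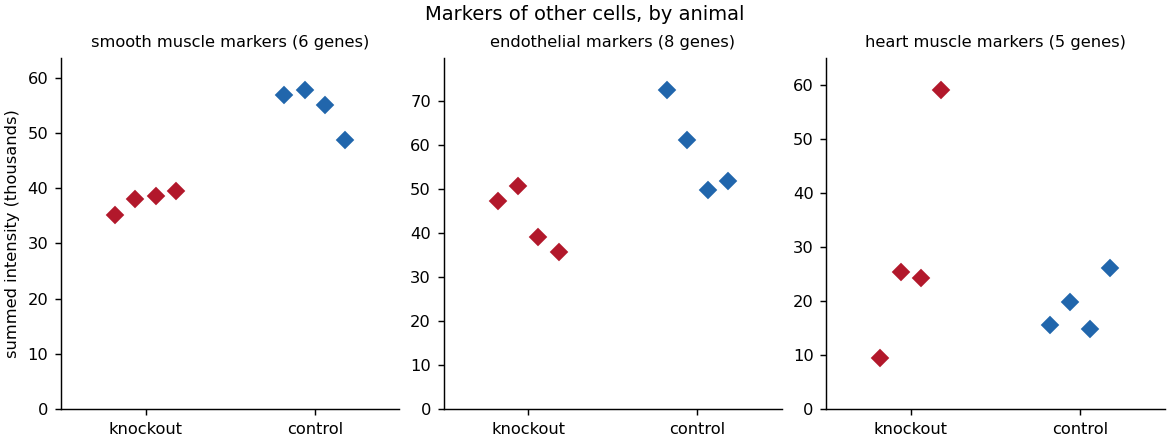
Summed intensity of the measured markers of smooth muscle, endothelium and heart muscle, with knockout animals in red on the left and control animals in blue on the right, animals 1 to 4 from left to right. The 4 knockout animals lie below the 4 control animals for smooth muscle and overlap them for endothelium and heart.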

How the data were processed

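Total RNA from tibialis anterior was measured on 24 arrays, 3 hybridisations for each of 4 knockout and 4 control animals. The deposited table gives the authors' linear intensity per row and array, already brought to a common median of 626 on every array; between 0% and 5.37% of an array's values were at or below 0. The sources used here do not name the scanner, background correction or scaling method, and the labels name Cy3 in the label field but Cy5 in the labelling protocol.

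Intensities below the 5th percentile of all values (38.8) were set to it, log2 was taken and the hybridisations of an animal were averaged. Symbols from the platform annotation were brought up to date through RefSeq (GRCm38.p6): 18213 rows matched a current symbol, 2126 a synonym, 38 neither, and 6046 had none. A listed gene was read from its row of highest mean. Groups were compared over all 26423 rows with limma 3.58.1 in R 4.3.3 (lmFit, eBayes, Benjamini-Hochberg, threshold 0.05). Animals are numbered 1 to 4 within a group in order of deposit, and these numbers pair nothing.

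The members and gene lists were chosen with earlier results of these data known. Named genes are all rows of the 5 members, Hira, list genes past the threshold (with the smallest p values up to 2 a list) and the 3 most like each member; Stim1, Csrp3, Atp2a1, Actc1, Acta1, Cnn1, Tnni3 and Nppa were added after their values were seen. Alternatives covered scaling, low values, dim rows, rows per gene, use of hybridisations, variance model, array weights, animal-number series, and leaving out each animal or hybridisation number.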

Additional observations from a re-analysis of the deposited data

Results flagged for a closer look

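In 38 groups of 4 animals, the 8 rows of the 5 genes and the list genes past the threshold, 1 animal stood far from the rest of its group by Dixon's criterion, which flags about 1 group in 20 by chance. Smtn, a smooth muscle marker, was 13.92 in knockout animal 3 (log2), where the other knockout animals lay between 14.09 and 14.11.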

How the results depend on the processing

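Every difference of the 8 rows kept its direction and moved by less than the SD between animals under the 26 other settings, or the 25 that included the row, 2 of them chosen after seeing the data (a floor at the dim level, and no use of the 2 arrays of highest background). For the rows without overlap between groups, the direction was fixed in advance when animals were left out or a series was taken alone. Casq1 row PH_mM_0003158 ran from -0.286 to -0.073, the other Casq1 row from -0.416 to -0.124, and Atp2a2 row PH_mM_0007334 from -0.783 to -0.095, where leaving out hybridisation 1 gave -0.23. The counts of calls were less stable. Over all rows the count of 1850 became 3277 with quantile normalization, 3062 with cyclic loess, 4058 with all arrays and the animal as a random block, 3791 with the hybridisation number as a replicate block added, 5375 with array weights, 17 in series A alone and 431 in series B alone. It ran from 986 to 2239 when an animal or a hybridisation number was left out: 1114 without control animal 1, 986 without knockout animal 3 and 1141 without hybridisation 2. The 2 calcium handling calls became 4 with quantile normalization, cyclic loess, the median of hybridisations and an intensity trend, 10 with the random block, 7 with the replicate block, 5 with array weights, 0 in series A and 1 in series B, and 1 to 3 when an animal or hybridisation was left out. Of the 2 slow-fibre rises, neither passed in series A alone (adjusted p = 0.106 for Tnni1 and 0.134 for Tnnt1), where 1 other slow-fibre gene was lower, and 1 passed in series B alone (Tnni1), and the 0 fast-fibre calls became 1 with array weights. The 7 calls among markers of other cells became 12 with the random block, 11 with the replicate block, 0 in series A and 1 in series B, and 2 to 6 when an animal or hybridisation was left out. With 2 animals per group in a series, fewer samples were fitted; for the other settings the cause was not tested. Same-numbered hybridisations of the groups deviated together at r = 0.085, 0.47 and 0.18, all positive and largest for hybridisation 2. Whether arrays of the same number shared a batch was not tested. The main fit averaged the hybridisations of an animal without a term for their number, which entered only as the replicate block. The calls of Tnni1, Tnnt1, Slc8a3, Icam2 and Tagln held without each animal in turn. Dim rows, in which background differs between arrays, limit what can be read from low intensities.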
